A study of Mus musculus with 4 samples.

Results

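The genes described here mark the endothelial cells that line the sinusoids of the liver. They are Stab1, Stab2, Clec4g, Lyve1, Kdr, Pecam1, Cdh5, Mrc1, Oit3 and Ptprb, taken as a fixed list of mouse symbols and matched to the Ensembl identifiers of the deposited tables. All 10 were found among the 22298 genes listed. The libraries were made from primary hepatocytes, the parenchymal cells of the liver, isolated from wild-type male C57BL/6 mice that were 8 weeks old when purchased. Both groups were kept for 6 weeks on a diet deficient in methionine and choline (MCD), a model of nonalcoholic steatohepatitis. The tamoxifen group (2 libraries) then received intraperitoneal tamoxifen, dissolved in corn oil, at 100 mg/kg on 5 consecutive days, and the vehicle group (2 libraries) received vehicle. By the study's general method, treated and control mice were given equal amounts of food. Samples are labelled as day 5. Polyadenylated RNA was sequenced in each library, and the authors gave the level of each gene as FPKM, a count of fragments scaled for transcript length and for the depth of the library. Whether the libraries of a group stem from separate mice is not stated in the labels, and p-values therefore refer only to the spread between these libraries, which may be technical.

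Liver sinusoidal endothelial cells form a fenestrated wall without a continuous basement membrane, which lets plasma reach the hepatocytes. They are among the most active scavenger cells of the body and clear hyaluronan, collagen fragments, modified lipoproteins and small immune complexes from blood. Stab1, Stab2, Lyve1 and Mrc1 encode endocytic receptors for such cargo, Clec4g encodes the lectin LSECtin, and Oit3 encodes a protein with a zona pellucida domain. Kdr, Pecam1, Cdh5 and Ptprb are shared by endothelium in general and serve growth factor signaling and cell contacts. Stab1, Lyve1 and Mrc1 are also made by some macrophages, and Pecam1 by platelets and leukocytes. In bulk libraries, fewer cells of a type and less RNA per cell cannot be told apart.

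The promoters of Stab1, Stab2 and Clec4g are shown as examples from the list. RefSeq sequences of GRCm38.p6, from 250 bases before to 50 bases after the start of the gene, were matched for 5 of the 10 genes (Stab1, Stab2, Clec4g, Kdr and Mrc1). Each is given 5′ to 3′ on the strand of the gene, and capitals mark the letters AGGAAG, read by factors of the ETS family, and TGCTGA, a partial site of MAF factors, on either strand (CTTCCT and TCAGCA on the other). The Stab1 promoter is at chr14:31168592-31168891 on the minus strand, the Stab2 promoter at chr10:87007893-87008192 on the minus strand and the Clec4g promoter at chr8:3720602-3720901 on the minus strand. The RefSeq start of Stab2 lies 83 bases inside the GENCODE gene whose coordinates are given with its values, and the starts of Stab1 and Clec4g are the same in both annotations.
Stab1: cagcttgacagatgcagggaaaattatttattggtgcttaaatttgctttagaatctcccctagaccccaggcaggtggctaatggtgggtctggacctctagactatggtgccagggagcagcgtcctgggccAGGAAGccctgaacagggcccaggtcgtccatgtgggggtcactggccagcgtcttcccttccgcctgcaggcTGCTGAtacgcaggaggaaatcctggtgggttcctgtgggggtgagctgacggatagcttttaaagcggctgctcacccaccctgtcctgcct
Stab2: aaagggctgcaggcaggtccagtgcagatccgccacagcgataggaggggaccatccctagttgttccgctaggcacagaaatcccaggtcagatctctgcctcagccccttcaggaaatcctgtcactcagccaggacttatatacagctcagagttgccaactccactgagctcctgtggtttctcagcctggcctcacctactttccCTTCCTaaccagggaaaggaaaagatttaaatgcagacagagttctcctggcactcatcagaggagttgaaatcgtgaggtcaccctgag
Clec4g: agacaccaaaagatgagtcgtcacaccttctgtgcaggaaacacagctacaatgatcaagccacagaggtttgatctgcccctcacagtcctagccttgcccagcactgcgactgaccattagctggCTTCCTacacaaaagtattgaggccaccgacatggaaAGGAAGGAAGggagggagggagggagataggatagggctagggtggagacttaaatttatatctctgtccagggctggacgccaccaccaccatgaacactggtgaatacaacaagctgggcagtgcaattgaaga
AGGAAG was found in 4 of the 5 promoters, all but that of Kdr, and in 35.1% of the 32544 different promoters of the table. In Clec4g it occurred 3 times, with 2 copies that overlap each other. TGCTGA was found in 1 of the 5, that of Stab1, against 19.5% of all promoters. AGATAA, read by GATA factors, was in 0 of the 5 and in 11.2% of all promoters. These matches describe the letters only.

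Hepatocyte transcripts were by far the most abundant, as the labelled cell type would have them. Alb, encoding albumin, was at 50399 and 45402 FPKM in the tamoxifen libraries and at 35301 and 26382 FPKM in the vehicle libraries, while the 10 endothelial genes summed to 125 and 153 FPKM against 428 and 667 FPKM. The endothelial part of each library was small, and none of the 10 genes was at 0 in any of them. The spacing of low values corresponded to about 17900000 fragments in tamoxifen 1 and 16700000 in tamoxifen 2, against 20700000 in vehicle 1 and 19700000 in vehicle 2. At that depth the 10 genes rested on about 390 to 14886 fragments per library, so the counting error alone was between 0.82% and 5.06% of each value. Vehicle 2 stood apart in that 9 genes of pancreatic acinar cells summed to 939.6 FPKM there. They summed to 1.04 FPKM in vehicle 1, 1.86 FPKM in tamoxifen 1 and 40.8 FPKM in tamoxifen 2. Fold changes of the endothelial genes are therefore also given without vehicle 2.

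All 10 sinusoidal endothelial genes were lower after tamoxifen. Among all 11633 genes tested, 46.7% were lower and 4.31% were higher at an adjusted p under 0.05 (limma on log2(FPKM + 1), Benjamini-Hochberg adjustment over all genes tested), so that lower values were common. In each of the 10 genes both tamoxifen libraries were below both vehicle libraries, as in 71.9% of all genes tested. The median log2 fold change of the 10 genes was -1.91, against -0.60 for all genes tested. Depending on the gene, between 6.07% and 14.8% of all genes tested had a log2 fold change at least as low. Mean levels in vehicle were between 3.03 and 5.19 times those in tamoxifen.

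**Figure D1:**
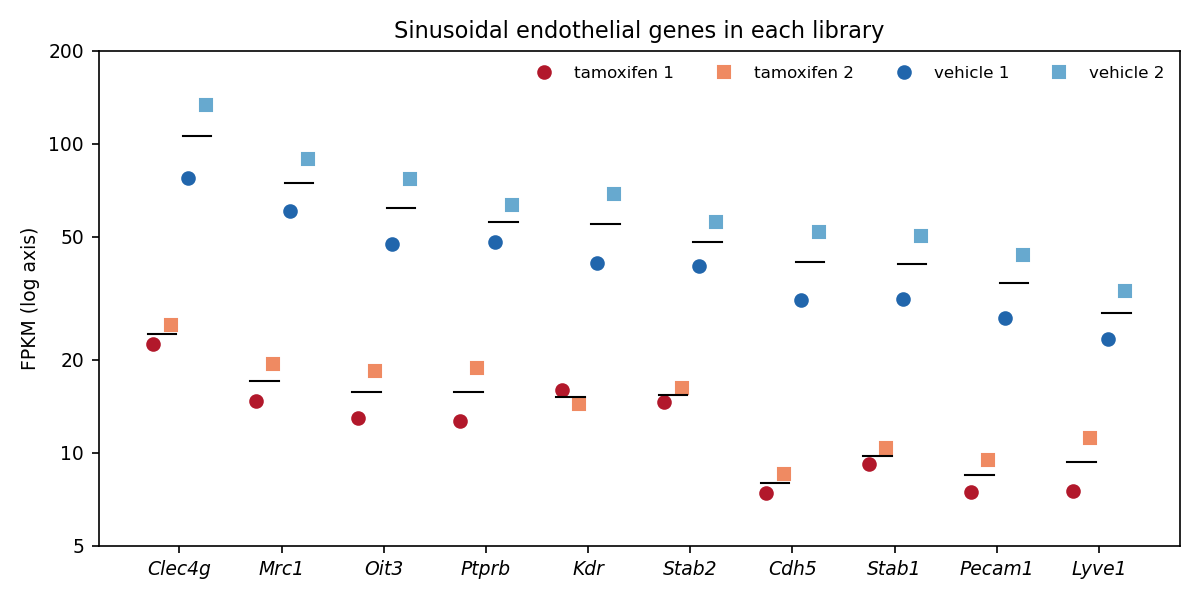
FPKM of the 10 sinusoidal endothelial genes on a log axis, with 1 point per library (tamoxifen 1 and 2 on the left, vehicle 1 and 2 on the right of each gene) and a line at the mean of each group (n = 2 libraries each). Tamoxifen values lie between 7.43 and 25.9 FPKM and vehicle values between 23.4 and 134 FPKM, and within each gene the groups do not overlap.

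The scavenger receptors fell together. Stab1, which encodes stabilin-1, a receptor for modified lipoproteins and matrix fragments (ENSMUSG00000042286, chromosome 14 from 31139013 to 31168641 on the minus strand in GRCm38, 69 exons in its longest coding transcript in GENCODE M21), was at 9.22 and 10.3 FPKM in the tamoxifen libraries, against 31.5 and 50.2 FPKM in the vehicle libraries. Both tamoxifen values of Stab1 were far below both vehicle values, and the difference was -1.92 on the log2 scale (standard error, SE, 0.26; limma adjusted p = 0.00157). Stab2, encoding stabilin-2, the main clearance receptor for hyaluronan (ENSMUSG00000035459, chromosome 10 from 86841198 to 87008025, minus strand), was at 14.6 and 16.2 FPKM in tamoxifen, against 40.2 and 55.7 FPKM in vehicle. It fell by 1.56 on the log2 scale (SE 0.23, limma adjusted p = 0.00198). The ratio of Stab1 to Stab2 within a library was 0.634 and 0.639 in tamoxifen, against 0.784 and 0.902 in vehicle, without overlap between the groups. Such a ratio does not depend on the scaling of a library. Of the ratios computed between listed genes, those of Kdr, Clec4g and Gata4 to Pecam1 and of Ptprb to Kdr overlapped between the groups. The others did not, and no ratio was tested. Mrc1 to Pecam1 was barely apart (2.035 in tamoxifen 2, 2.041 in vehicle 2). So was Flt1 to Kdr (0.194 in tamoxifen 2, 0.193 in vehicle 1). With 2 libraries against 2, groups without overlap reach a two-sided permutation p of 0.333 at best, so non-overlap alone shows little. Lyve1, a hyaluronan receptor also found on lymphatic vessels (ENSMUSG00000030787, chromosome 7 from 110850607 to 110863239, minus strand), was at 7.54 and 11.1 FPKM in tamoxifen, against 23.4 and 33.3 FPKM in vehicle. Its log2 fold change of -1.51 (SE 0.27, limma adjusted p = 0.00397) was the smallest of the 10, and the call was lost after median-ratio scaling (log2 fold change -0.76, limma adjusted p = 0.0569).

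Lectin genes had the highest mean levels, and they fell as well. Clec4g, encoding a C-type lectin that binds glycans and T cells (ENSMUSG00000074491, chromosome 8 from 3707064 to 3720651, minus strand), was at 22.5 and 25.9 FPKM in tamoxifen, against 77.3 and 134 FPKM in vehicle. This was the highest of the 10 genes in each of the 4 libraries, and its log2 fold change was -2.03 (SE 0.28, limma adjusted p = 0.00170). Mrc1, the mannose receptor (ENSMUSG00000026712, chromosome 2 from 14229392 to 14332057, plus strand), was at 14.7 and 19.3 FPKM in tamoxifen, against 60.4 and 89.1 FPKM in vehicle. It fell by 2.06 on the log2 scale (SE 0.26, limma adjusted p = 0.00125). Oit3 (ENSMUSG00000009654, chromosome 10 from 59422958 to 59441778, minus strand) was at 13.0 and 18.4 FPKM in tamoxifen, against 47.3 and 76.9 FPKM in vehicle, with a log2 fold change of -1.90 (SE 0.29, limma adjusted p = 0.00227). The genes that macrophages also make were spread over the range of the 10, with Mrc1 near its lower and Lyve1 at its upper end.

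The genes of endothelium in general fell as well. Kdr, encoding the main signaling receptor for VEGF-A (ENSMUSG00000062960, chromosome 5 from 75932827 to 75978458, minus strand), was at 16.0 and 14.4 FPKM in tamoxifen, against 41.2 and 68.9 FPKM in vehicle (log2 fold change -1.75, SE 0.27, limma adjusted p = 0.00239). Ptprb, a receptor phosphatase that restrains TIE2 and VE-cadherin signaling (ENSMUSG00000020154, chromosome 10 from 116275523 to 116389535, plus strand), was at 12.6 and 18.9 FPKM in tamoxifen, against 48.3 and 63.4 FPKM in vehicle (log2 fold change -1.78, SE 0.26, limma adjusted p = 0.00193). The tamoxifen libraries differed more in Ptprb than in any other of the 10 genes, by 1.49-fold. Pecam1, an adhesion molecule of endothelial contacts (ENSMUSG00000020717, chromosome 11 from 106654217 to 106750628, minus strand), was at 7.45 and 9.50 FPKM in tamoxifen, against 27.2 and 43.7 FPKM in vehicle, and fell by 1.91 on the log2 scale (SE 0.27, limma adjusted p = 0.00181). Cdh5, encoding VE-cadherin, the adherens junction protein of endothelium (ENSMUSG00000031871, chromosome 8 from 104101625 to 104144511, plus strand), was at 7.43 and 8.54 FPKM in tamoxifen, against 31.3 and 51.6 FPKM in vehicle. Its log2 fold change of -2.20 (SE 0.27, limma adjusted p = 0.00119) was the largest of the 10. Differences in fold change between single genes were not tested.

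The order of the levels was similar in both groups. In tamoxifen it ran from Clec4g (24.2 ± 2.41 FPKM) through Mrc1, Ptprb, Oit3, Stab2, Kdr, Stab1, Lyve1 and Pecam1 to Cdh5 (7.99 ± 0.785 FPKM; SD, n = 2 libraries each), and the values of 7 of 9 pairs of neighbours overlapped between libraries. The exceptions were Clec4g above Mrc1 (17.0 ± 3.27 FPKM) and Kdr (15.2 ± 1.11 FPKM) above Stab1 (9.78 ± 0.785 FPKM). In vehicle it ran from Clec4g (106 ± 39.9 FPKM) through Mrc1 (74.7 ± 20.3 FPKM), Oit3, Ptprb, Kdr, Stab2, Cdh5, Stab1 and Pecam1 to Lyve1 (28.3 ± 6.99 FPKM; SD, n = 2 libraries each), and in all 9 pairs of neighbours the values overlapped between libraries. Taken within each library, 5 of 9 neighbours in tamoxifen and 6 of 9 in vehicle had the same order in both libraries of the group, Clec4g above Mrc1 among them in both groups. FPKM is scaled by transcript length, so these levels can be compared between genes.

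How far the 10 genes fell depended on how the libraries were scaled. The 100 most abundant genes held 62.6% and 65.0% of the summed FPKM in the tamoxifen libraries, against 53.8% and 46.1% in the vehicle libraries. Median-ratio scaling moved the median of all genes to 0.064 on the log2 scale, and the median of the 10 genes was then -1.15, with 9 of 10 lower (19.4% of all genes tested were lower). After quantile normalization the medians were 0.082 for all genes and -1.34 for the 10 genes, and 10 of 10 were lower (15.2% of all genes tested). When libraries were scaled to equal levels of 14 hepatocyte markers, the medians were -1.29 and -2.68, and 10 of 10 were lower (77.9% of all genes tested). Relative to the median of all genes, the 10 genes thus differed by -1.301 on the log2 scale as deposited, and by -1.21, -1.43 and -1.39 under these scalings. No scaling turned the direction of any of the 10 genes. Without vehicle 2 the log2 fold changes of the 10 genes lay between -1.85 and -1.26. Their median was then -1.58, against -0.52 for all genes tested.

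**Figure D2:**
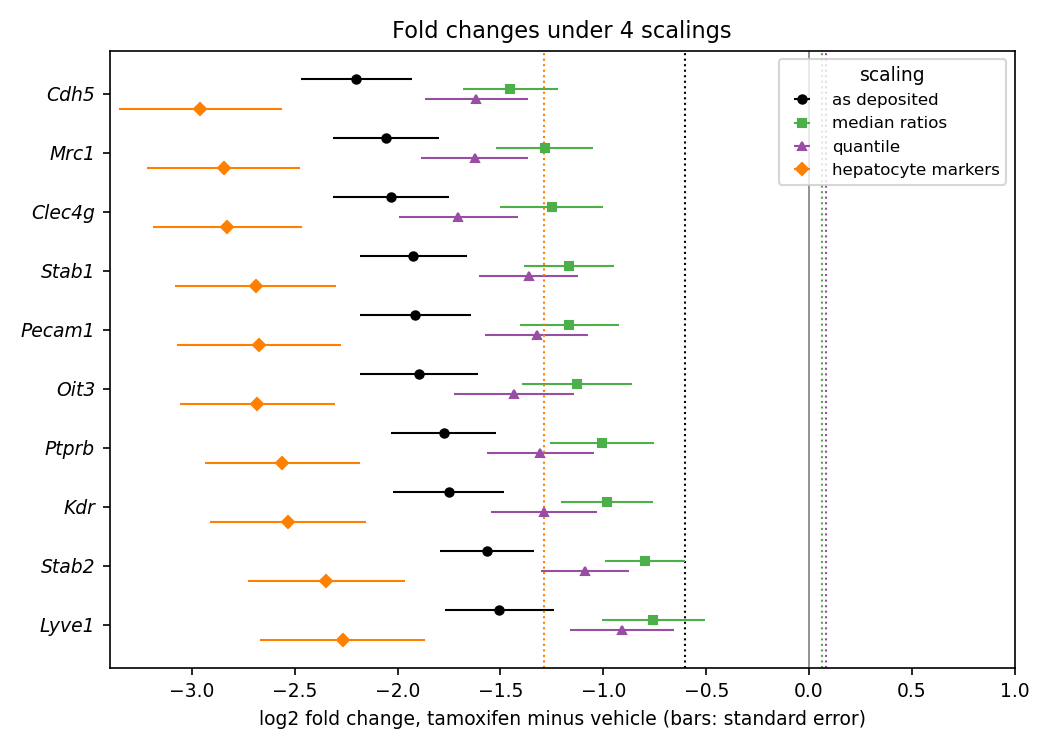
Log2 fold changes (tamoxifen minus vehicle, on log2(FPKM + 1)) of the 10 genes under 4 scalings, with bars of 1 standard error from limma. Dotted lines give the median of all 11633 genes tested under the same scaling (-0.60 as deposited, 0.064 for median ratios, 0.082 for quantile normalization and -1.29 for hepatocyte markers), and every gene lies to the left of the line of its own scaling.

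The proportions of the genes to each other differed between the libraries of the groups for some of them. The 10 genes summed to 139 ± 19.5 FPKM in tamoxifen and 547 ± 169 FPKM in vehicle (SD, n = 2 libraries each), so that the vehicle sum was 3.95 times that of tamoxifen. With 2 libraries against 2, no exact permutation test over libraries can reach a two-sided p below 0.333. As shares of that sum, which are free of library scaling, no gene moved by more than 2.25 percentage points on average. Mean shares in vehicle ran only from 5.22% (Lyve1) to 19.1% (Clec4g). The share of Stab2 was 11.6% and 10.6% in the tamoxifen libraries, against 9.38% and 8.36% in the vehicle libraries, and that of Lyve1 was 6.03% and 7.30%, against 5.46% and 4.99%. These shares were higher after tamoxifen in both libraries of each group. Cdh5 had a share of 5.95% and 5.60% in tamoxifen, against 7.31% and 7.74% in vehicle, and Mrc1 of 11.8% and 12.7%, against 14.1% and 13.4%. Clec4g and Pecam1 also had lower shares in both tamoxifen libraries, by 1.58 and 0.36 percentage points on average, although for Clec4g the gap between tamoxifen 1 (17.999%) and vehicle 1 (18.068%) was small. For Stab1, Kdr, Oit3 and Ptprb the groups overlapped. Of all genes tested, 13.6% had both tamoxifen libraries below both vehicle libraries when set relative to the sum of the 10 genes, and 76.0% had them above. That sum fell further than most genes, so most had to rise relative to it. These percentages are therefore no background for the shares of the 10 genes. Shares without overlap also reach a two-sided permutation p of 0.333 at best, and they were not tested.

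**Figure D3:**
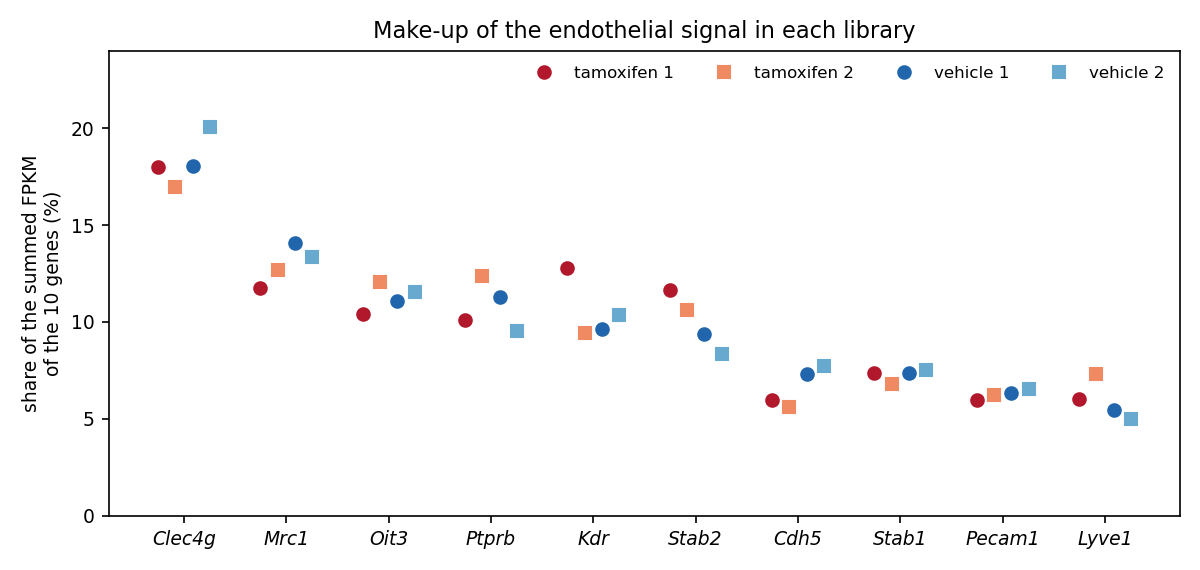
Share of each gene in the summed FPKM of the 10 sinusoidal endothelial genes, in percent, with 1 point per library (tamoxifen 1 and 2 on the left, vehicle 1 and 2 on the right of each gene). Shares of Stab2 and Lyve1 are higher and those of Cdh5 and Mrc1 are lower in both tamoxifen libraries than in both vehicle libraries.

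Libraries of the same group differed jointly in these genes. In vehicle 2 each of the 10 exceeded its level in vehicle 1 (70.9% of all genes tested did so), by between 1.31-fold (Ptprb) and 1.73-fold (Clec4g). In tamoxifen 2, 9 of 10 were higher than in tamoxifen 1, against 41.8% of all genes tested, by up to 1.49-fold, and Kdr was the exception at 0.902 times its level in tamoxifen 1. These steps between libraries were larger than the counting error of at most 5.06%. In each gene they were smaller, as folds, than the step between the highest tamoxifen and the lowest vehicle value.

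Other genes of sinusoidal cells followed the same pattern. Of 15 listed, 14 were tested, of which 14 were lower and 0 higher, and the median was -2.08 on the log2 scale (46.7% of all genes tested were lower, at a median of -0.60). Fcgr2b, the inhibitory Fc receptor through which these cells clear immune complexes, was at 34.9 and 44.5 FPKM in tamoxifen, against 139 and 209.6 FPKM in vehicle. Ehd3, a protein of membrane trafficking, fell by 2.41 (SE 0.33) and Dnase1l3, a secreted nuclease, fell by 2.26 (SE 0.23) on the log2 scale. Wnt9b, an angiocrine factor of central vein endothelium, was below the filter on low values, at 0.17 and 0.16 FPKM in tamoxifen and 0.71 and 1.68 FPKM in vehicle.

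Endothelial receptors, ligands, junction genes and transcription factors were mostly lower too. Over all 6 further endothelial lists, 82 of 91 genes were tested, 76 were lower, 0 were higher and 6 did not pass in limma (1 was higher at an unadjusted p under 0.05). Of all genes tested, 46.7% were lower. Rspo3, Acvrl1, Angpt2, Pdgfb, Jam3, Sele, Selp, Sox7, Sox17, Tal1, Cd34, Vwf and Ly6c1 passed the filter on low values through vehicle alone. Both of their tamoxifen values were below the 1 FPKM it asks for, so the filter fixed their direction. Without the filter 74 of the further endothelial genes were lower and 0 higher, beside 4647 lower of all 16967 genes. Without vehicle 2 the medians of these lists lay between -1.78 (other sinusoidal genes) and -1.01 (ligands), against -0.52 for all genes tested. Median-ratio scaling left 64 lower and 1 higher, and quantile normalization 56 lower and 1 higher (19.4% and 15.2% of all genes tested were lower under these scalings). Of 16 receptors 15 were lower, at a median of -1.73 (11 lower at a median of -0.99 after quantile normalization). Eng, an endothelial coreceptor for TGF-beta family ligands, was at 16.0 and 24.3 FPKM in tamoxifen, against 76.7 and 119 FPKM in vehicle, and fell by 2.22 on the log2 scale (SE 0.29, limma adjusted p = 0.00143). Acvrl1, the receptor kinase that works with it, fell by 2.38, Nrp2, a semaphorin and VEGF-C coreceptor, fell by 2.36 and Flt4, the VEGF-C receptor, fell by 1.55. Nrp1, a coreceptor that other liver cells make as well, did not pass, with 32.3 and 18.3 FPKM in tamoxifen and 37.2 and 44.2 FPKM in vehicle (log2 fold change -0.71, limma adjusted p = 0.0688). Nrp1 passed without tamoxifen 1 (limma adjusted p = 0.0289), when scaled to hepatocyte markers (adjusted p = 0.000222) or with the replicate number as a block (adjusted p = 0.0225), and its log2 fold change turned to 0.059 under median-ratio scaling (adjusted p = 0.878).

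Ligands were the most mixed of these lists. Of 11 tested, 8 were lower and 0 were higher, at a median of -1.33, where 46.7% of all genes tested were lower at a median of -0.60. Quantile normalization gave 4 lower and 1 higher at a median of -0.45 (15.2% of all genes lower), median-ratio scaling 6 lower and 1 higher (19.4% of all genes lower). Without tamoxifen 2 the ligand median was -1.22, against -0.57 for all genes tested. Hgf, hepatocyte growth factor, which sinusoidal and stellate cells make, was at 2.97 and 2.21 FPKM in tamoxifen, against 18.9 and 28.1 FPKM in vehicle, and fell by 2.75 on the log2 scale (SE 0.26, limma adjusted p = 0.000643). Pdgfb, a growth factor for pericytes and stellate cells, fell by 2.33, and fell by 1.62 without vehicle 2. Cxcl12, a chemokine with high levels, fell by 0.91 (limma adjusted p = 0.0152), a call lost without vehicle 2 (adjusted p = 0.0708), without tamoxifen 2 (adjusted p = 0.104), after quantile normalization (adjusted p = 0.0553) and after median-ratio scaling (adjusted p = 0.658). Vegfa, the main ligand of Kdr and largely a product of hepatocytes, was at 50.9 and 39.4 FPKM in tamoxifen, against 31.8 and 28.8 FPKM in vehicle, a log2 fold change of 0.55 that did not pass (SE 0.22, limma adjusted p = 0.0640). It was called higher after median-ratio scaling (1.33, adjusted p = 0.00636), after quantile normalization (0.99, adjusted p = 0.0206) and with the replicate block (adjusted p = 0.0475), and it was at -0.24 when scaled to hepatocyte markers. The ligand and its receptor Kdr thus had fold changes of opposite sign as deposited.

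Of 18 junction and surface genes 17 were lower, at a median of -1.72, beside 46.7% of all genes tested at a median of -0.60. Quantile normalization left 13 lower at a median of -1.01, beside 15.2% of all genes. Vcam1, an adhesion molecule for leukocytes, fell by 2.58 (SE 0.35) and Icam2, another, fell by 2.26 (SE 0.35). Ctnnb1, beta-catenin, which most cell types make, was at 43.6 and 35.8 FPKM in tamoxifen, against 89.5 and 124 FPKM in vehicle, and fell by 1.40, a call lost after median-ratio scaling (limma adjusted p = 0.0548). Icam1, inducible in hepatocytes and endothelium, was at 31.3 and 19.97 FPKM in tamoxifen and at 27.8 and 52.9 FPKM in vehicle, and the groups overlapped (limma adjusted p = 0.172). Of 14 transcription factors 13 were lower, at a median of -1.93 (10 lower at a median of -1.10 after quantile normalization). Ets1, of the ETS family, fell by 2.41, Lmo2, a cofactor of GATA and TAL1, fell by 2.36, Klf2, a factor induced by blood flow, fell by 2.33, and Klf4 fell by 2.25. Nr2f2, a factor of venous endothelium, was the gene that did not pass (7.84 and 5.12 FPKM in tamoxifen, 9.16 and 12.5 FPKM in vehicle, limma adjusted p = 0.0688), and it was named after its values were seen.

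Genes listed for continuous endothelium and other vessels did not go the opposite way. All 9 tested of 12 listed were lower and 0 were higher, at a median of -1.58, where 46.7% of all genes tested were lower. Cd34, Vwf and Ly6c1 among them were below 1 FPKM in both tamoxifen libraries. They passed the filter through vehicle alone, so their direction was fixed by it. Quantile normalization left 5 of 9 lower (15.2% of all genes). The median of the list was -1.56 without tamoxifen 1 and -1.61 without tamoxifen 2, against -0.65 and -0.57 for all genes tested. Plvap, which encodes the diaphragm protein of fenestrated vessels, was at 3.90 and 6.65 FPKM in tamoxifen, against 43.8 and 86.2 FPKM in vehicle, and fell by 3.35 on the log2 scale (SE 0.35, limma adjusted p = 0.000839). Its ratio to Pecam1 was 0.523 and 0.700 in tamoxifen, against 1.61 and 1.97 in vehicle. Ly6a, an interferon-inducible surface protein, fell by 3.50, and fell by 2.62 without vehicle 2, in which it was at 65.7 FPKM, against 18.5 FPKM in vehicle 1. Aqp1, a water channel, fell by 2.05, close to the sinusoidal genes. Cd34 and Vwf, markers of capillarized sinusoids, were named after their values were seen: they were at 0.81 and 0.66 FPKM and at 0.35 and 0.35 FPKM in tamoxifen, against 3.27 and 6.17 FPKM and 1.45 and 2.35 FPKM in vehicle.

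Markers of macrophages and stellate cells were mostly lower as well, while those of other cell types were mixed. As deposited, 46.7% of all genes tested were lower, at a median of -0.60. Of 16 markers of Kupffer cells and macrophages 15 were lower, at a median of -3.09. Their sums were 154 and 261 FPKM in tamoxifen, against 1775 and 3579 FPKM in vehicle. None was at 0 in any library. No lymphocyte marker was at 0 in all 4 libraries, but most were below the filter on low values. Lyz2, a lysozyme of myeloid cells, fell by 4.71 and Cd5l, a Kupffer cell protein, fell by 3.59 on the log2 scale. Without vehicle 2 the macrophage list had a median of -2.54, against -0.52 for all genes tested. Of 13 markers of stellate cells and fibroblasts 13 were lower, at a median of -3.12, with sums of 35.01 and 52.9 FPKM in tamoxifen, against 410.4 and 720.3 FPKM in vehicle, and none was at 0 in any library. Dcn, a matrix proteoglycan, fell by 3.36 and Col3a1, a collagen chain, fell by 4.70. Of the lymphocyte markers 4 of 11 were tested and 4 were lower. They passed the filter through their vehicle values, which largely set that direction. Of the cholangiocyte markers 4 of 5 tested were lower. These calls changed with the setting. Of the lymphocyte markers 0 were lower after quantile normalization, at a median of -0.89, beside 15.2% of all genes tested. The cholangiocyte markers had a median of -1.39 as deposited and of -0.68 without vehicle 2. Median-ratio scaling gave 2 of them lower and 1 higher (19.4% of all genes tested were lower). Quantile normalization gave 1 lower and 1 higher (15.2% of all genes tested were lower). Lymphocyte markers summed to 1.89 and 1.28 FPKM in tamoxifen, against 9.08 and 34.95 FPKM in vehicle, and cholangiocyte markers to 53.6 and 94.9 FPKM, against 203 and 541 FPKM, most of it from Spp1, which macrophages also make. Of 9 acinar markers 0 passed in limma (0 at an unadjusted p under 0.05), and nearly all of their signal was in vehicle 2. Without vehicle 1 the acinar median was -4.91, against -0.69 for all genes tested. When scaled to hepatocyte markers, 9 of 9 were lower, beside 77.9% of all genes tested. Prss2, Pnlip and Cpb1 of that list were at 0 in vehicle 1. Hepatocyte markers went the other way, with 7 of 14 tested higher and 0 lower (0 lower at an unadjusted p under 0.05). Of all genes tested, 4.31% were higher. The hepatocyte median was 0.79, and 0.56 without vehicle 2. When libraries were scaled to these markers, 2 were higher and 4 lower at a median of -0.024, beside 77.9% of all genes lower. That scaling evens out these same markers by design, so their median under it is no result. The part of these cell types in the results on the endothelial genes was not tested.

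**Figure D4:**
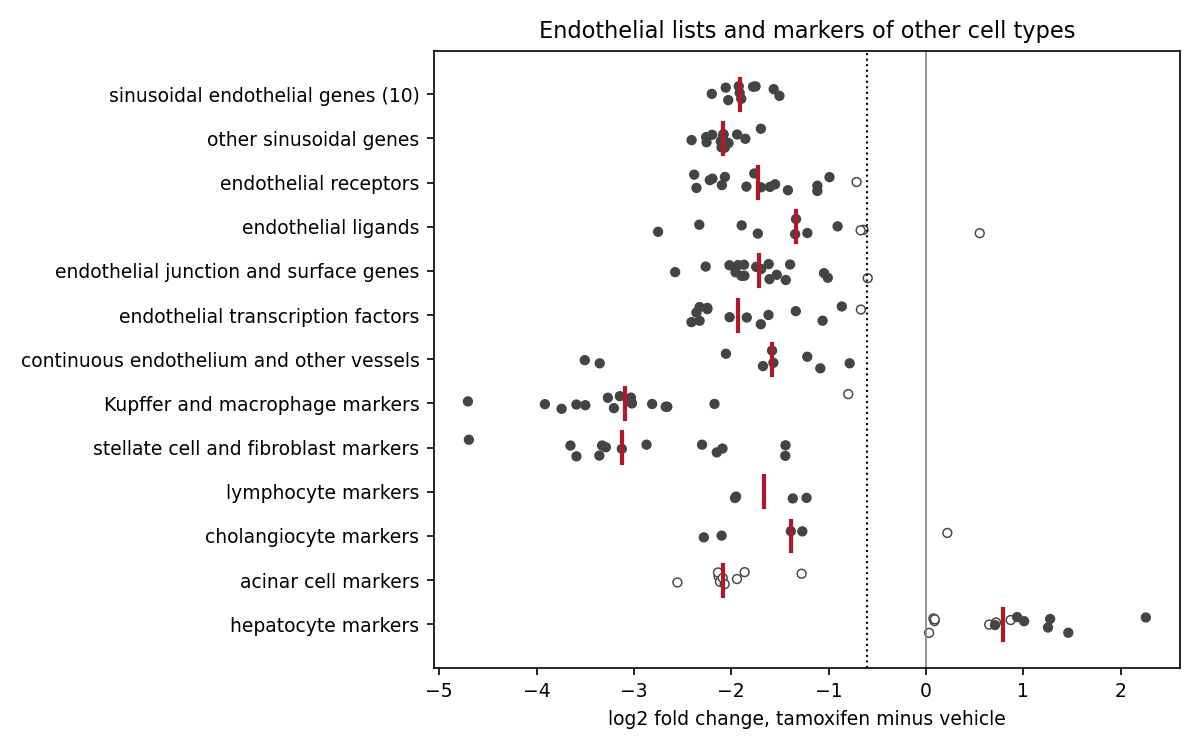
Log2 fold changes (tamoxifen minus vehicle, on log2(FPKM + 1)) of every tested gene in the endothelial lists and in marker lists of other cell types. Filled points passed an adjusted p of 0.05 in limma, open points did not, red bars give the median of a list and the dotted line the median of all genes tested (-0.60). The 10 sinusoidal genes lie between -2.20 and -1.51, and the medians of the macrophage and stellate lists lie at -3.09 and -3.12.

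Within a library, the 10 genes can be set against the other lists. Per 100 FPKM of the macrophage markers the 10 genes summed to 81.4 and 58.4 FPKM in tamoxifen, against 24.1 and 18.6 FPKM in vehicle. Per 100 FPKM of the stellate markers they summed to 357 and 289 FPKM in tamoxifen, against 104 and 92.6 FPKM in vehicle. Per 100 FPKM of hepatocyte markers they summed to 0.164 and 0.211 FPKM in tamoxifen, against 0.790 and 1.64 FPKM in vehicle. Relative to macrophage and stellate markers the 10 genes were thus higher after tamoxifen, and relative to hepatocyte markers lower. These ratios do not depend on library scaling and were not tested, as they are sums over chosen genes. The sums lean on single abundant genes. Lyz2, the macrophage marker that fell most, gave 577 of 1775 FPKM in vehicle 1 and 1262 of 3579 FPKM in vehicle 2. Alb gave most of the hepatocyte sum.

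The search for like profiles was limited to genes averaging 5 FPKM or more. Those whose profile over the 4 libraries lay nearest to the mean profile of the 10 genes were Arvcf, a catenin of cadherin contacts, Dusp1, a MAPK phosphatase, Ctla2b, Tie1, an endothelial receptor kinase, and Impact. Likeness was measured as the root mean square difference of centred log2(FPKM + 1), which was 0.0176 for Arvcf and 0.0388 for Impact. Within the 10 genes it ran from 0.0345 for Pecam1 to 0.201 for Lyve1. Tie1 was at 2.72 and 3.30 FPKM in tamoxifen, against 10.3 and 17.2 FPKM in vehicle. Dusp1 was at 49.95 and 59.0 FPKM in tamoxifen, against 160.1 and 239.6 FPKM in vehicle. With 4 libraries many genes share such a profile.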

How the data were processed

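RNA of primary hepatocytes was sequenced in 2 tamoxifen and 2 vehicle libraries. The authors deposited FPKM values rounded to 2 decimals, 1 table per library. Tools named in the submitters' processing notes, without roles, are RSEM, StringTie 1.3.1, HISAT2, Bowtie2 and fastp 0.18.0. Genome build: not given in the sources used here. Symbols and coordinates came from GENCODE M21 (GRCm38). Of 22298 genes, the 11633 that reached 1 FPKM in 2 or more libraries were compared on log2(FPKM + 1), which understates changes of low genes, with limma 3.58.1 in R 4.3.3 (two-sided moderated test with an intensity trend, Benjamini-Hochberg adjustment over all genes tested). The depth of a library was inferred from steps between its low values in genes with 1 annotated transcript. The fit was also run on simulated data in which few genes changed and library make-up did not shift. The data here differ in both, so that run does not bear on the calls.

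The genes and lists were chosen with earlier results of these data known. Named are all 10 genes, in each further endothelial list the 3 highest means and the 2 largest called changes, the 2 highest means of marker lists, and the 5 nearest profiles; exceptions are stated in the text, and some marker genes are given by their sums only. Alternatives were median-ratio, quantile and hepatocyte-marker scaling, other filters, a pseudocount of 0.1, sample weights, each library left out and the replicate number as a block. Tf of the hepatocyte list was not used here. Figures used matplotlib 3.10.9 under Python 3.11.15.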

Additional observations from a re-analysis of the deposited data

How the results depend on the processing

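Of the 120 log2 fold changes of the 10 genes under the 12 alternatives, 119 kept their direction and their side of the threshold, and the exception was Lyve1 after median-ratio scaling (-0.76, limma adjusted p = 0.0569). The median log2 fold change of the 10 genes was -1.15 with median-ratio scaling, -1.34 with quantile normalization and -2.68 with scaling to hepatocyte markers, and between -2.24 and -1.58 with 1 library left out. The log2 ratio of their summed FPKM (tamoxifen over vehicle) was -1.16 after median-ratio scaling and -2.86 when scaled to hepatocyte markers, and ran from -2.26 to -1.63 with 1 library left out. Over all genes tested, 3182 were lower at a mean of at least 5 FPKM, where fewer genes were tested. After median-ratio scaling 2258 were lower and 1929 higher, after quantile normalization 1765 and 1569, and when scaled to hepatocyte markers 9060 and 140. With 1 library left out, between 2555 and 5531 were lower and between 263 and 500 higher. The further endothelial genes had 1 higher, Vegfa, after median-ratio scaling, after quantile normalization and with the replicate block.

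Replicate numbers are shared between the groups, but the labels give no pairing. Deviations of same-numbered libraries correlated at 0.28 across genes, over 2 pairs only. With the replicate block 10 of the 10 genes were lower, and over all genes 5863 were lower and 573 higher. Depth did not limit the 10 genes, which rested on about 390 fragments or more in each library. With 2 libraries per group the spread is the limit.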
